A study of Mus musculus with 6 samples.

Results

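The 10 genes described here encode the transcription factors best known for switching epithelial cells to a mesenchymal programme, namely Zeb1 and Zeb2, Snai1, Snai2 and Snai3, Twist1 and Twist2, Prrx1 and Prrx2, and Foxc2. They were chosen by name, as the rows of the gene table that carry these symbols, with earlier results of these data known. All 10 were found among its 52325 genes. All 10 also passed the low-count filter, which left 20684 genes. RNA had been sequenced from breast tumour cells of C57BL/6 mice of the C3-T; Elf5-GFP background, so tumour background and reporter were shared by both groups. Green fluorescent protein (GFP) reports Elf5, an ETS factor of luminal progenitor and alveolar cells, and the 2 GFP-positive libraries are called Elf5-positive and the 4 GFP-negative libraries Elf5-negative. The labels give no ages, do not spell out C3-T and do not tie each library to a mouse of its own. The p-values therefore rest on library-to-library spread, which may be partly technical. Titles carry an undefined number and the code T1 or T2. Elf5-negative libraries 1 and 3 are T1 and the other 4 are T2. Elf5-positive library 1 shares its number and T2 with Elf5-negative library 2, and Elf5-positive library 2 with Elf5-negative library 4.

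Zeb1 and Zeb2 are zinc finger and homeobox proteins, and the Snail family members Snai1 (Snail), Snai2 (Slug) and Snai3 (Smuc) are zinc finger proteins. Both families bind E-box sequences in the promoters of epithelial genes such as Cdh1 (E-cadherin) and recruit corepressors there. Twist1 and Twist2 are basic helix-loop-helix factors that pair with E-proteins, Prrx1 and Prrx2 are paired-related homeobox factors of limb and connective tissue mesenchyme, and Foxc2 is a forkhead factor of mesenchyme and lymphatic vessels. Several of these genes are also expressed by fibroblasts and pericytes, and Snai2 also by basal cells of the normal mammary gland, where Elf5 has been described as its repressor.

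Library totals ran from 9106660 counts in Elf5-negative library 4 to 53694884, and levels are given as CPM, counts relative to the library total after scaling by the trimmed mean of M-values (TMM). Elf5 itself was at 77.7 and 137 CPM in the Elf5-positive and at 6.93 to 24.7 CPM in the Elf5-negative libraries, which checks the sort. Antibodies to CD45, CD31 and TER119 were used in the sort, and these proteins mark leukocytes, endothelium and red cells but not fibroblasts or pericytes. The summed level of 14 fibroblast markers was 615.2 to 866 CPM in the Elf5-positive and 11910 to 37260 CPM in the Elf5-negative libraries, and 13 of the 14 fell. Pericyte and smooth muscle markers summed to 137 to 186.1 CPM against 583.8 to 1449 CPM, and 6 of 10 fell. Endothelial markers summed to 26.0 to 53.5 CPM against 73.3 to 161.7 CPM (3 of 12 fell), and none of 10 macrophage markers passed. Schwann cell markers were higher in the Elf5-positive libraries, at 579.3 and 754 CPM against 166.4 to 297.7 CPM, of which Sox10, a gene also expressed in mammary epithelium, was 495.4 and 535.2 CPM and the only 1 of 7 that rose. Epithelial markers, at 5521 to 7774 CPM, were also present at 1954 to 3381 CPM in the Elf5-negative libraries. No defining fibroblast, pericyte or epithelial marker was at 0 in both Elf5-positive libraries. The part of these cells in the differences below was not tested beyond the ratios given, and in bulk RNA fewer cells of a type and less RNA per cell cannot be told apart.

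Zeb1, Zeb2, Snai2, Twist2 and Prrx1 fell in the Elf5-positive libraries, with log2 fold changes (Elf5-positive minus Elf5-negative) of -3.80 to -5.28. Prrx2 lay lower in both Elf5-positive libraries than in any Elf5-negative one without passing the test. Snai1, Twist1 and Foxc2 had groups that overlapped, and Snai3 alone was higher in both Elf5-positive libraries. Thus 5 of 10 genes were lower (edgeR's quasi-likelihood test, Benjamini-Hochberg adjusted p below 0.05), where 3.79% of all genes tested were. None was called higher, where 0.585% of all genes were. At an unadjusted p under 0.05, 1 was higher, as were 1075 of all 20684 genes tested. DESeq2 called 1 higher, Snai3, as it did 2.11% of all genes. Groups did not overlap in 6 lower and 1 higher gene, against 14.8% and 10.9% of all genes. The median log2 fold change of the 10 genes was -3.59, beside 0.05 for all genes tested. Without Elf5-negative libraries 1 and 2, where 8 skeletal muscle markers summed to 233.8 and 46.2 CPM against 4.70 to 14.7 CPM in the other 4 libraries, only Zeb1 and Zeb2 were called among the 10 (0.372% of all genes were lower in that comparison). The log2 fold changes of the 3 genes no longer called were then -4.09 for Snai2, -3.45 for Twist2 and -5.47 for Prrx1, with adjusted p of 0.0731, 0.198 and 0.0517. In the T2 libraries alone, without a block, edgeR called 0 of the 10, and 0 of all genes. At an unadjusted p under 0.05, 6 of the 10 were lower there, as were 1463 of all 19395 genes tested. A block for the title number, which the labels do not define, gave 8 of the 10 lower in these T2 libraries. With that block 7.05% of all genes were called lower.

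**Figure D1:**
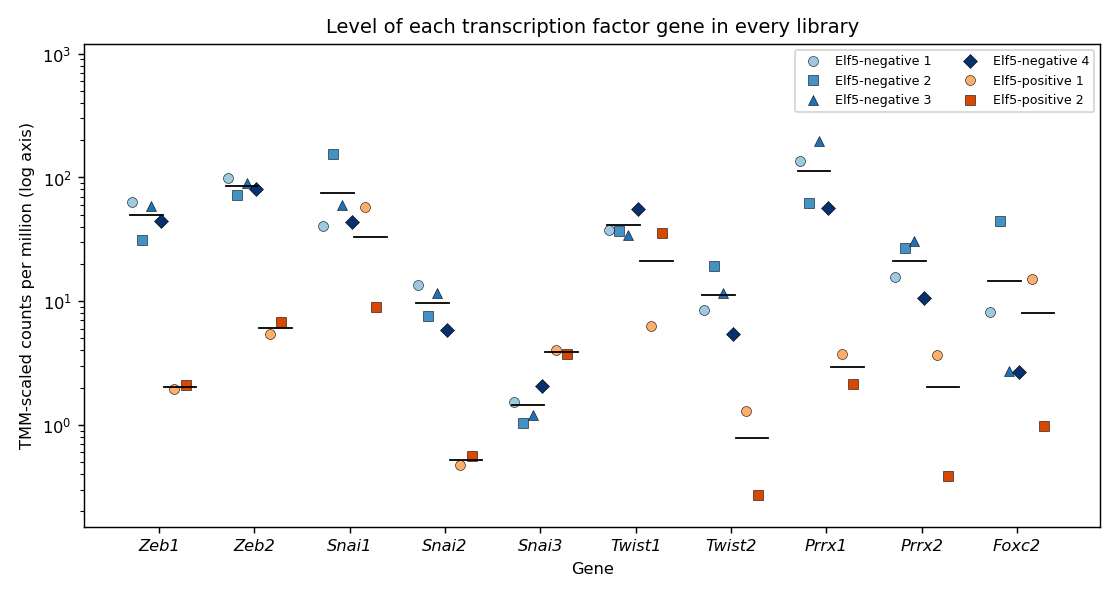
Level of each of the 10 genes in TMM-scaled CPM on a log axis, with 1 point per library (blue Elf5-negative, orange Elf5-positive) and a bar at each group's mean. Zeb1, Zeb2, Snai2, Twist2, Prrx1 and Prrx2 have both orange points below all blue ones, whereas Snai1, Twist1 and Foxc2 overlap and Snai3 is reversed.

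Zeb2 had the smallest p-value of all 20684 genes and Zeb1 the third smallest. Zeb1 (ENSMUSG00000024238.14, chromosome 18, GRCm38) was at 63.3, 31.5, 58.7 and 44.3 CPM in Elf5-negative libraries 1 to 4 and at 1.94 and 2.11 CPM in Elf5-positive libraries 1 and 2. The groups were far apart, with means of 49.5 ± 14.5 CPM (SD, n = 4) and 2.02 ± 0.124 CPM (SD, n = 2), a ratio of 24.5. Its log2 fold change was -4.61 (SE 0.40, edgeR adjusted p = 0.0100). Zeb2 (ENSMUSG00000026872.17, chromosome 2, 44983632 to 45117395, minus strand) was at 98.6, 71.6, 90.8 and 80.0 CPM in the Elf5-negative and at 5.47 and 6.77 CPM in the Elf5-positive libraries. It was the steadiest of the 10 genes among Elf5-negative libraries, where the highest level was 1.38 times the lowest. Its log2 fold change was -3.80 (SE 0.28, adjusted p = 0.0100). Zeb1 and Zeb2 were called in all 18 alternatives but the T2 libraries alone without a block. There both had an edgeR adjusted p of 0.0822 and log2 fold changes of -4.22 and -3.62.

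Of the 3 Snail genes Snai2 passed the test and Snai1 and Snai3 did not. Snai2 (ENSMUSG00000022676.6, chromosome 16, 14705852 to 14709385, plus strand) was at 13.6, 7.60, 11.7 and 5.86 CPM in Elf5-negative libraries 1 to 4 and at 0.472 and 0.561 CPM in the Elf5-positive ones, where it rested on 21 and 29 counts. Every Elf5-negative library was therefore at least 10 times above either Elf5-positive one, and the log2 fold change was -4.22 (SE 0.55, edgeR adjusted p = 0.0121). Of 10 basal and myoepithelial markers 4 fell with it, the basal keratin gene Krt5 and the contractile genes Mylk, Acta2 and Myh11, whereas Krt14 and Krt17 had log2 fold changes of 0.52 and 0.27 and did not pass. Acta2 and Myh11 also stand on the pericyte and smooth muscle list. Of the 10 basal markers 7 had a log2 fold change below 0, and their median was -2.965. The summed level of the basal markers was nevertheless 913.4 to 1195 CPM in the Elf5-positive and 994.7 to 1603 CPM in the Elf5-negative libraries.

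Snai1 (ENSMUSG00000042821.7, chromosome 2, 167538195 to 167542814, plus strand) was at 40.8, 155.7, 59.4 and 43.9 CPM in Elf5-negative libraries 1 to 4 and at 57.6 and 8.94 CPM in Elf5-positive libraries 1 and 2. Elf5-positive library 1 lay within the Elf5-negative range and library 2 below it. The log2 fold change was -1.17 with a 95% interval from -3.05 to 0.70 (SE 0.81, adjusted p = 0.559), which does not show that the groups were alike. Single libraries moved this value, to -3.07 with Elf5-positive library 1 left out, to -0.38 with Elf5-positive library 2 left out and to -0.53 with Elf5-negative library 2 left out, and none of these passed. Snai1 passed in 2 alternatives, at -2.76 when scaled to epithelial markers, which moved the median of all genes to -1.40 (adjusted p = 0.0133), and at -1.84 in the T2 libraries paired by title number (adjusted p = 0.0136). Snai3 (ENSMUSG00000006587.6, chromosome 8, 122454208 to 122460733, minus strand), the least studied of the family, was at 1.53, 1.04, 1.20 and 2.06 CPM in the Elf5-negative and at 4.00 and 3.74 CPM in the Elf5-positive libraries. Its log2 fold change of 1.43 (SE 0.43) missed the threshold (adjusted p = 0.125) but passed with DESeq2 (0.00878), and was -0.052 when scaled to epithelial markers.

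Twist1 and Twist2 are close paralogs, of which Twist2 fell. Twist2 (ENSMUSG00000007805.4, chromosome 1, 91801461 to 91848028, plus strand) was at 8.53, 19.4, 11.6 and 5.45 CPM in the Elf5-negative and at 1.30 and 0.271 CPM in the Elf5-positive libraries, the last from 14 counts. Its log2 fold change was -3.84 (SE 0.84, edgeR adjusted p = 0.0458). When single libraries were left out, the adjusted p of Twist2 was 0.0981, 0.0745 and 0.116 for Elf5-negative libraries 1, 2 and 3 and 0.110 for the second Elf5-positive library. The log2 fold changes in these 4 comparisons were -3.96, -3.45, -3.83 and -3.11. Twist1 (ENSMUSG00000035799.6, chromosome 12, 33957671 to 33959829, plus strand) was at 37.8, 37.0, 34.5 and 56.0 CPM in the Elf5-negative libraries and at 6.28 and 35.8 CPM in Elf5-positive libraries 1 and 2. Elf5-positive library 2 was thus level with Elf5-negative libraries 1 to 3, while library 1 lay below all of them. The log2 fold change was -0.97 with an interval from -2.37 to 0.43 (adjusted p = 0.505), and it rested on which Elf5-positive library was kept. It was -2.71 with library 2 left out (adjusted p = 0.0448) and -0.20 with library 1 left out (adjusted p = 0.842). Pdgfra, a receptor that marks fibroblasts, likewise stood higher in the second Elf5-positive library (176.9 CPM) than in the first (40.7 CPM), and was the only fibroblast marker of the 14 that did not pass. The other 13 fibroblast markers were lower in library 2 than in library 1.

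Prrx1 had the largest fold change of the 10 genes. Prrx1 (ENSMUSG00000026586.16, chromosome 1, 163245119 to 163313710, minus strand) was at 137.1, 61.8, 198.8 and 57.1 CPM in the Elf5-negative and at 3.71 and 2.15 CPM in the Elf5-positive libraries. The means of 114 ± 67.5 CPM (SD, n = 4) and 2.93 ± 1.11 CPM (SD, n = 2) differed 38.8 times, a log2 fold change of -5.28 (SE 0.71, edgeR adjusted p = 0.0121). Without Elf5-positive library 2 the log2 fold change of Prrx1 was -4.94 (adjusted p = 0.0508). Prrx2 (ENSMUSG00000039476.13, chromosome 2, 30834972 to 30881251, plus strand) was at 15.7, 27.1, 30.4 and 10.7 CPM in the Elf5-negative libraries and at 3.69 and 0.387 CPM in Elf5-positive libraries 1 and 2. The groups did not overlap, but the Elf5-positive libraries differed 9.53 times from each other, and the log2 fold change of -3.37 (SE 0.92) did not pass (adjusted p = 0.0905). Prrx2 passed in 6 of 18 alternatives, among them DESeq2 (adjusted p = 2.5e-04), limma-voom (0.0359) and the fit without Elf5-positive library 1 (0.0235, log2 fold change -5.76).

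Foxc2 (ENSMUSG00000046714.7, chromosome 8, 121116171 to 121118895, plus strand) varied widely within both groups. It was at 8.25, 44.4, 2.73 and 2.67 CPM in Elf5-negative libraries 1 to 4 and at 15.1 and 0.987 CPM in Elf5-positive libraries 1 and 2. Its highest Elf5-negative level was 16.6 times the lowest, and the log2 fold change was -0.86 with an interval from -4.02 to 2.30 (adjusted p = 0.825). Its sign turned with single libraries, to 0.81 when Elf5-negative library 2 was left out and to 0.054 when Elf5-positive library 2 was. Within the T2 pairs of the same title number Foxc2 was lower in both Elf5-positive libraries, by log2 ratios of -1.55 and -1.35, and the paired comparison of these 4 libraries called it lower (-1.50, adjusted p = 0.0204).

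Snai1, Foxc2 and Twist2 shared 1 feature of their distribution. In each group every one of them was highest in the library of the same number and code. These were Elf5-negative library 2 and Elf5-positive library 1. Elf5-positive library 1 held more Twist2 and Prrx2 than library 2, by 4.82 and 9.53 times, and more Snai1 and Foxc2, by 6.44 and 15.3 times. Twist1 was the other way, 5.71 times higher in library 2. Zeb1, Zeb2, Snai2 and Snai3 differed at most 1.24 times between the 2 Elf5-positive libraries. With 2 libraries in the group these are descriptions of the libraries, with no test.

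**Figure D2:**
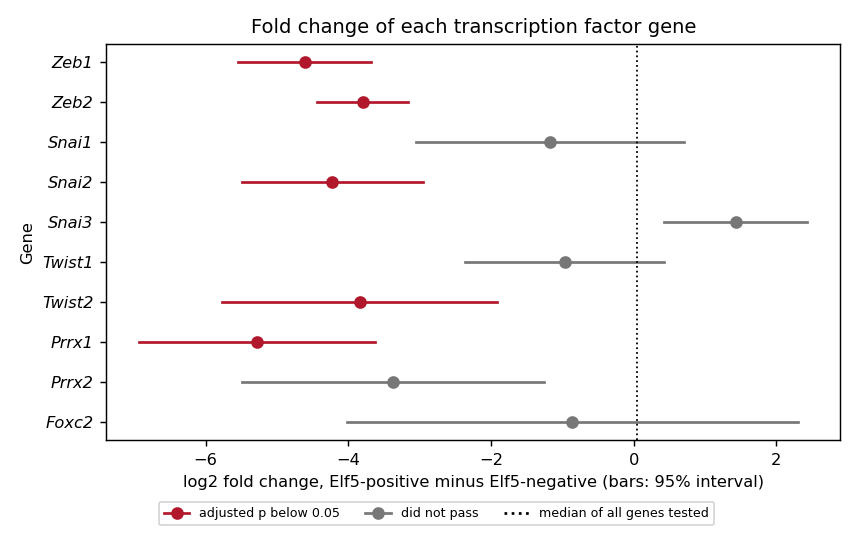
Log2 fold change of each gene, Elf5-positive minus Elf5-negative, with its 95% interval from edgeR's quasi-likelihood fit (red where the adjusted p was below 0.05) and the median of all genes tested as a dotted line. The intervals of Zeb1 and Zeb2 are the narrowest of the 5 red ones, and those of Snai1, Twist1 and Foxc2 span 0.

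Levels can be compared between genes only per length, here as CPM per kilobase of the longest coding transcript. In the Elf5-negative libraries Snai1 stood highest at 46.2 ± 33.6 CPM per kilobase, followed by Twist1 (25.4 ± 6.06), Prrx1 (17.4 ± 10.3), Prrx2 (14.6 ± 6.46), Zeb2 (9.34 ± 1.30) and Zeb1 (8.53 ± 2.49; each SD, n = 4). Foxc2, Snai2 and Twist2 lay at 5.32, 4.80 and 4.46, and Snai3 was lowest at 0.894. Of these neighbours only Twist2 and Snai3 differed by more than the larger of their SDs. In the Elf5-positive libraries Snai1 and Twist1 again stood first, at 20.5 ± 21.2 and 12.9 ± 12.8 CPM per kilobase (SD, n = 2). Foxc2, Snai3 and Prrx2 followed at 2.95, 2.38 and 1.41, and Zeb2, Prrx1, Zeb1, Twist2 and Snai2 lay at 0.671 to 0.256. Snai3, last of the 10 per length in the Elf5-negative libraries, was thus at rank 4 in the Elf5-positive ones, though there only Zeb2 and Prrx1 were neighbours separated by more than the larger SD.

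Paralogs were compared as a ratio within each library, which no library scaling alters apart from the 0.1 CPM added to each level. For Zeb1 over Zeb2 the log2 ratio was -0.64, -1.18, -0.63 and -0.85 in Elf5-negative libraries 1 to 4 and -1.45 and -1.64 in the Elf5-positive ones, so Zeb1 was the lower by a further 0.72 there. For Snai3 over Snai1 the mean log2 ratio rose from -5.40 ± 1.23 (SD, n = 4) to -2.52 ± 1.82 (SD, n = 2), again with no overlap. Snai2 over Snai1, Twist1 over Twist2 and Prrx1 over Prrx2 differed by -2.43, 2.40 and -1.24 between the groups and overlapped. Leaving out 1 Elf5-positive library moved these from -3.87 to -0.99, from 0.19 to 4.61 and from -2.34 to -0.15, and Snai3 over Snai1 from 1.59 to 4.17. With 1 CPM added in place of 0.1, Snai2 over Snai1 differed by -1.33, Twist1 over Twist2 by 1.37 and Zeb1 over Zeb2 by -0.42. In an exact two-sided permutation test over the 6 libraries the first 2 ratios reached p = 0.0667, the smallest that 15 assignments allow, with 0.167 after adjustment over the 5 pairs. None of the 5 could have passed 0.05 in this design.

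The level of each gene was also set against the summed level of the 14 fibroblast markers of its library. For Zeb1, Zeb2, Snai2, Twist2, Prrx1 and Prrx2 the mean log2 ratio differed between the groups by -0.44 to 0.87, against log2 fold changes of -3.37 to -5.28 in CPM. Prrx1, for example, was at -7.05, -7.59, -7.55 and -7.90 in Elf5-negative libraries 1 to 4 and at -7.83 and -8.10 in the Elf5-positive ones. With 1 CPM added in place of 0.1 the differences were larger for the low genes, at 1.89 for Snai2, 1.93 for Twist2, 1.64 for Prrx2 and 0.63 for Zeb1. Without the second Elf5-positive library Twist2 was at 1.53 and Prrx2 at 2.04. With the collagen genes left out of the markers the differences were -1.075 for Prrx1 and -0.49 for Zeb1. They were then 0.09 for Snai2, 0.17 for Prrx2, 0.18 for Twist2 and 0.23 for Zeb2. At 0.1 CPM and with all 14 markers the ratios of the groups overlapped for 5 of these 6 genes, all but Zeb2. The summed markers were themselves at 615.2 to 866 CPM in the Elf5-positive and 11910 to 37260 CPM in the Elf5-negative libraries. A gene of unchanged CPM would therefore stand higher on this ratio, and a higher ratio or groups without overlap do not show a rise. Snai1, Twist1 and Foxc2 stood higher relative to these markers in the Elf5-positive libraries, by 3.16, 3.22 and 3.79 on the log2 scale, and Snai3 by 6.03. Leaving out 1 Elf5-positive library moved these to 2.07 and 4.25 for Snai1, 4.71 and 1.72 for Twist1, 2.13 and 5.44 for Foxc2, and 6.23 and 5.84 for Snai3. For Snai1, Twist1 and Snai3 the groups did not overlap (exact two-sided permutation test, p = 0.0667, and 0.222 after adjustment over 10 genes), and for Foxc2 they did (p = 0.200). Zeb2 did not overlap either, at -7.28 and -6.48 in the Elf5-positive and -8.68 to -7.38 in the Elf5-negative libraries (p = 0.200 in the same exact test, 0.333 after adjustment).

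**Figure D3:**
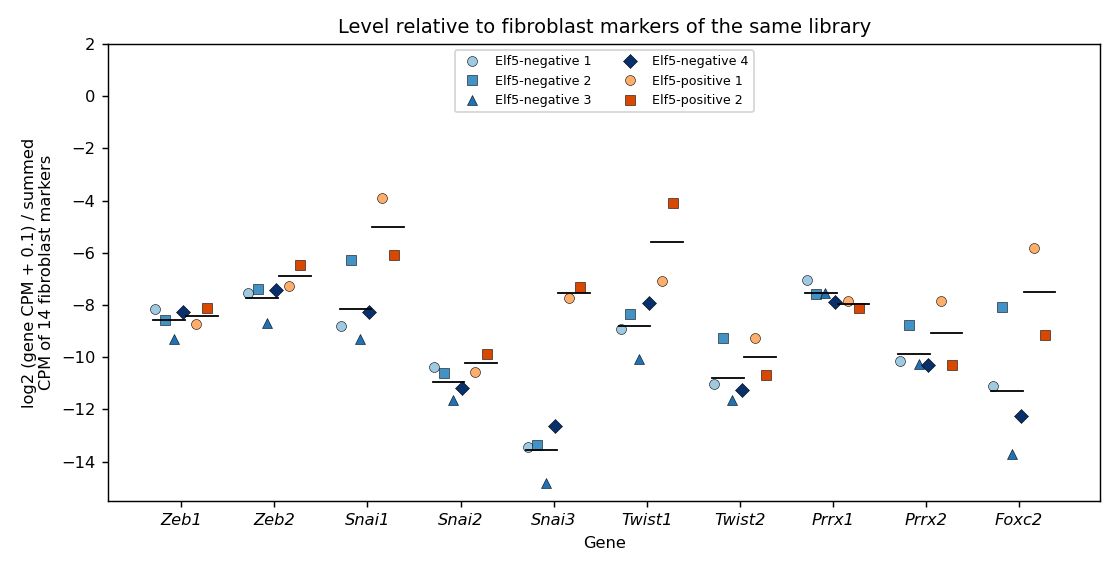
Log2 ratio of each gene (CPM + 0.1) to the summed CPM of 14 fibroblast markers of the same library, with 1 point per library and a bar at each group's mean. At this pseudocount the 2 bars of Zeb1, Snai2, Twist2, Prrx1 and Prrx2 lie at most 0.82 apart (up to 1.93 with 1 CPM). Those of Snai1, Snai3, Twist1 and Foxc2 are 3.16 to 6.03 higher in the Elf5-positive libraries. The markers themselves were lower there, so a gene of unchanged CPM would also stand higher.

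Other transcription factors of mesenchymal cells also fell. Of 25 listed, 24 were tested and 8 fell, with a median log2 fold change of -3.03 (all genes 0.05). They included Hic1 (log2 fold change -4.28, edgeR adjusted p = 0.0100), a zinc finger repressor, Ebf2 (-5.07), an early B cell factor family member, Heyl (-2.51), a Notch target, and Runx1t1 (-4.46), a corepressor. Foxc1, the paralog of Foxc2, had a log2 fold change of 0.76 and did not pass (adjusted p = 0.134). It was at 201.4 and 189.3 CPM in the Elf5-positive and at 94.1 to 145.9 CPM in the Elf5-negative libraries.

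Few genes whose products act with or on these factors passed the test. Of 16 corepressors of Zeb and Snail, such as Ctbp1, Ctbp2, Kdm1a and Hdac1, none passed (14 above 0, median log2 fold change 0.24, range -0.57 to 0.48). The 4 of smallest p were Ajuba, a partner of the Snail repression domain (-0.57), Wdr77 (0.35), Rcor1 (0.33) and Ezh2 (0.48), a histone methyltransferase. Of 15 kinases, phosphatases and ubiquitin pathway genes that act on these proteins none passed either (median 0.10), with Lats2, a Hippo kinase, nearest at -1.29 (adjusted p = 0.0537), followed by Prkd1 (0.90), Fbxw7 (0.78) and Fbxo11 (-0.36). Among 7 helix-loop-helix partners and inhibitors of Twist only Id3, which sequesters E-proteins, fell (-1.51, adjusted p = 0.0399). Id2, Id1 and the E-protein gene Tcf4 were at 0.86, 0.65 and -0.87 and did not pass. Of 15 inducers 1 fell, the TGF-beta receptor gene Tgfbr2 (-2.66, adjusted p = 0.0165), while the ligand Tgfb2, Hif1a and Tgfbr1 were at -1.72, -0.84 and -0.72 and did not pass. The genes of the miR-200 family and miR-205, microRNAs that target Zeb1 and Zeb2, held 1 count over all 6 libraries. Of 7 listed genes 6 were in the table, and they were not tested. These counts do not give the level of the microRNAs themselves.

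Genes known to rise in mesenchymal transition lay lower in the Elf5-positive libraries. Of 24 listed 15 fell, all 24 had a log2 fold change below 0, and their median was -3.25. Pdgfrb, a receptor of pericytes and fibroblasts, fell by 4.25 on the log2 scale, Fstl1 by 4.74, the collagen gene Col3a1 by 5.41 and Lox, which crosslinks collagen, by 4.61 (edgeR adjusted p from 0.0112 to 0.0165). Vim, the mesenchymal intermediate filament, fell from 1060 to 2793 CPM in the Elf5-negative libraries to 376.7 and 94.1 CPM, and Cdh2 (N-cadherin), at 9.21 to 26.8 CPM against 3.37 and 0.581 CPM, did not pass (adjusted p = 0.0886). Col1a1 and Col3a1 also stand on the fibroblast list and Acta2 on the pericyte list, whose summed levels differed as given above.

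Genes that these repressors are known to silence lay higher in the Elf5-positive libraries. Of 25 epithelial targets 11 rose and 1 fell, 24 of 25 were above 0, and their median log2 fold change was 1.39. Rab25, a small GTPase of apical recycling, rose by 2.03 (SE 0.24, edgeR adjusted p = 0.0114), Cldn7, a claudin of tight junctions, by 1.76 (SE 0.21) and the junction scaffold Tjp3 by 2.01 (SE 0.25). Prss8, a membrane-anchored protease, rose by 1.99. Cdh1 was at 395.7 and 642.8 CPM in the Elf5-positive and 148.1 to 296.4 CPM in the Elf5-negative libraries, so the groups did not overlap, but its log2 fold change of 1.19 (SE 0.36) did not pass (adjusted p = 0.120). Cdh3 (P-cadherin of basal cells) fell by 4.51. Of 16 epithelial factors that oppose the 10 genes 5 rose, namely Elf3 (2.07), Grhl2 (1.88), Elf5 (3.04), Esrp2 (1.67) and Esrp1 (1.39). The other 11 did not pass, 3 of the 16 were below 0, and the lowest log2 fold change was -2.9. Esrp1 and Esrp2 are splicing factors. Cells were sorted on a reporter of Elf5, so the rise of Elf5 followed from the design, though it counts in this list and its median. Of the 12 epithelial markers used in the scaling above, 11 are on these 2 lists, so under it their direction is set by construction.

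**Figure D4:**
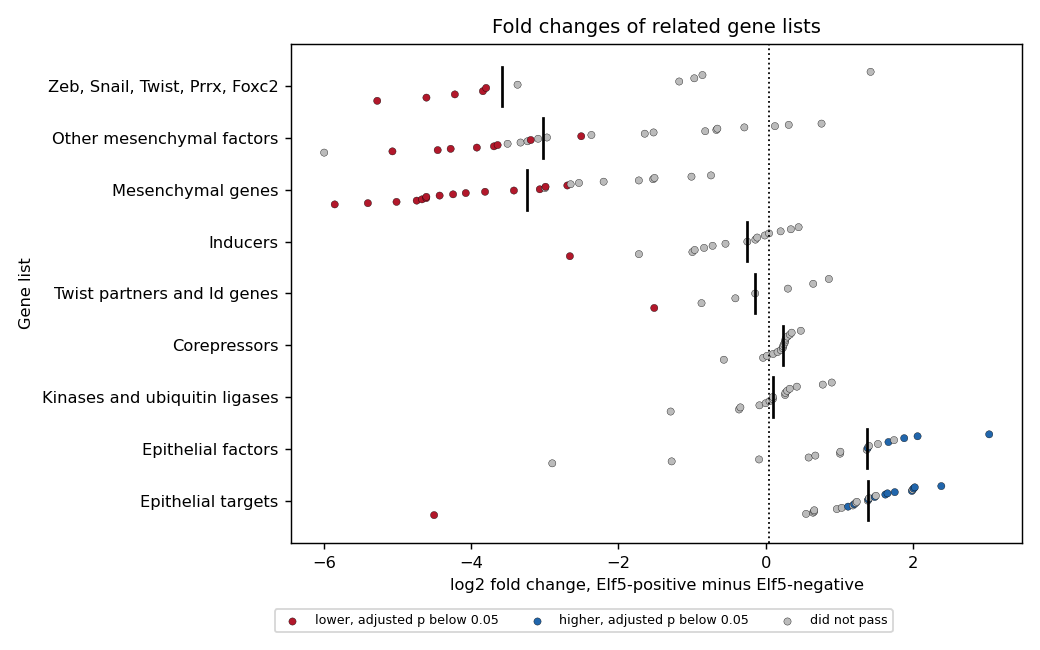
Log2 fold changes, Elf5-positive minus Elf5-negative, of the tested genes of each list, with 1 point per gene (red lower, blue higher, grey did not pass), a bar at each list's median and a dotted line at the median of all genes tested. The medians of the mesenchymal lists lie left of 0 (-3.59, -3.03 and -3.25) and those of the 2 epithelial lists right of it (1.38 and 1.39), with single genes on the other side in each list but the mesenchymal genes. The epithelial factors include Elf5, on whose reporter the cells were sorted.

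Zeb and Snail proteins bind an E-box, which was looked for in promoters. The E-box CAGGTG, read as CACCTG on the other strand, was sought on both strands in the 250 bases before each start in RefSeq's promoter table (GRCm38.p6). It was present for 11 of the 15 targets in that table (73.3%), among them 5 of 6 that rose, and for 4 of 8 epithelial factors, against 19.4% of 27025 genes. It was present for 0 of 14 mesenchymal genes, 2 of 13 other mesenchymal factors and, of the 6 described genes in the table (Zeb2, Snai1, Twist1, Twist2, Prrx1 and Prrx2), for Snai1 alone. The targets were listed as genes that these repressors are known to silence, so their share is not independent of that choice. A link between the box and the rise was not tested. Epcam (log2 fold change 1.48, adjusted p = 0.0360) and Tjp3 are shown as targets that rose, Cldn4 as one that did not pass (1.03, adjusted p = 0.0892) and Snai1 as the described gene that carries the box. The stretches begin 20 bases before the first box, end at the base before the start, touch no annotated transcript and have the E-boxes in capitals. They are chr17:87635772-87635978 (plus strand), chr10:81291582-81291709 (minus), chr5:134946935-134946968 (minus) and chr2:167538049-167538194 (plus). A match is a description of the sequence and not a bound site.
Epcam: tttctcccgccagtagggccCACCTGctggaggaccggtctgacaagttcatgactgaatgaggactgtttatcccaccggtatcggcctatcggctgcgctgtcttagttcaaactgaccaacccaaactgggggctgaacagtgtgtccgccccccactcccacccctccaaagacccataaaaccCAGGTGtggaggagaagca
Tjp3: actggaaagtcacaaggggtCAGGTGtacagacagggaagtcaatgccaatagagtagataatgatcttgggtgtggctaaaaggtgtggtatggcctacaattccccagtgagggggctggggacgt
Cldn4: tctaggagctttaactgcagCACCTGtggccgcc
Snai1: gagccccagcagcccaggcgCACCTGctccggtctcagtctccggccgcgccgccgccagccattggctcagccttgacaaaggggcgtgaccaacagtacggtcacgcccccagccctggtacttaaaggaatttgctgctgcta

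For each of the 10 genes, the genes of most similar pattern were those with the smallest root mean square difference of centred log2 CPM over the 6 libraries, among 12444 candidates. Prrx1 ran closest to Ogn, Agtr1a and Abca6 (differences of 0.130 to 0.134 on the log2 scale) and Snai2 to Itga1 (0.134), Runx1t1 and Ndufa4l2. Zeb1 was nearest to Serpina1b (0.228), Abcc9 and Aoc3, and Zeb2 to Adgra2 (0.214), Nrp1 and Bnc2. Twist2 was nearest to Ccn4 (0.163), Asphd2 and Creb3l1, and Prrx2 to Col6a3 (0.258), Col8a1 and Bgn. Snai3, which runs the other way, was nearest to Plet1 (0.106), Klc3 and Anxa9. Snai1 was nearest to Acsbg1 and Slc39a13 (both 0.236) and Stab1, and Twist1 to Mfsd1 (0.203), Dpy19l3 and Hdac9. Foxc2 had no close neighbour, with Hlx nearest at 0.507, then Rapsn and Gata2.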

How the data were processed

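Per the submitters' processing notes, the authors used Salmon and GRCm38.p5 to make the deposited estimated counts (expected counts, whole numbers) per Ensembl gene. No Salmon version or annotation release is stated (not given in the sources used here). Salmon divides reads between similar transcripts by model. Symbols and coordinates came from GENCODE M21 (GRCm38), matched on the ID without its version for 52220 of 52325 IDs. Members and gene lists were chosen with earlier results of these data known.

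Genes were filtered with filterByExpr and libraries scaled with TMM factors. Groups were compared with edgeR 4.0.16 (quasi-likelihood, no block, Benjamini-Hochberg over all 20684 genes tested, threshold 0.05) in R 4.3.3; DESeq2 1.42.0 and limma 3.58.1 (voom) were alternatives. Standard errors are the log2 fold change over the root of F. Promoters came from RefSeq (GRCm38.p6). Ratios used CPM + 0.1. Figures used matplotlib 3.10.9.

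Named genes are all 10 members, Elf5, up to 4 genes of smallest p per list and the 3 genes most like each member (average log2 CPM of at least 1, prior count 2); Foxc1, Cdh1, Cdh2, Cdh3, Vim, Esrp1, Epcam, Cldn4 and the markers named were added after their values were seen. Other alternatives were RLE and upper quartile factors, other filters, robust dispersions, the title number as block, T2 libraries only, scaling to epithelial markers and each library left out. Leaving out Elf5-negative libraries 1 and 2 together was chosen after seeing the data.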

Additional observations from a re-analysis of the deposited data

Results flagged for a closer look

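Of 35 results examined among the 4 Elf5-negative libraries, 7 had a library far from the other 3, its distance from the closest other library being more than 0.829 of the group's range. For independent, normally distributed values such a gap comes in about 1 of 20 results. Levels in CPM need not be so distributed, and the 35 results share genes. The 7 can therefore not be set against that rate. Snai1 (0.838) and Foxc2 (0.866) stood high in Elf5-negative library 2, at 155.7 and 44.4 CPM, and Twist1 (0.848) stood high in library 4, at 56.0 CPM. Relative to fibroblast markers, Zeb2 was low in library 3 (0.887; log2 ratio -8.68 against -7.52 to -7.38) and Prrx2 high in library 2 (0.909; -8.77 against -10.3 to -10.2). The summed leukocyte markers were high in library 1 (0.98; 162.4 CPM), and the Schwann cell markers high in library 4 (0.871; 297.7 CPM), most of which was Sox10 at 223.7 CPM.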

How the results depend on the processing

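RLE or upper quartile factors, a CPM filter and robust dispersions called the same 5 genes lower. Genes called lower and higher numbered 1331 and 273 with no filter and 1763 and 436 with DESeq2 (1 of the 10 genes, Snai3, higher). Scaled to epithelial markers the calls numbered 10989 and 16, with 8 of the 10 lower and Snai3 at -0.052. In that scaling 53.1% of all genes tested were called lower. With Elf5-negative libraries 1 and 2 left out the calls numbered 75 and 0, with 2 of the 10 lower, Zeb1 and Zeb2. There 1657 and 539 genes had an unadjusted p under 0.05, and Foxc2 was at 1.58. The T2 libraries alone gave 0 and 0 with edgeR (0 of the 10; 1463 and 469 at an unadjusted p under 0.05). With single libraries left out, where a lone Elf5-positive library is assumed to vary like the Elf5-negative ones, 197 to 811 genes were lower and 25 to 133 higher, and 4 to 6 of the 10 were lower. The lowest count was without Elf5-positive library 2 (197 lower), and the fewest higher calls came without Elf5-negative library 1 (25). Foxc2 ranged from -3.88 to 0.81, log2 Zeb1 over fibroblast markers from -0.16 to 0.45 (-0.49 with markers other than collagens) and log2 Prrx2 over these markers from -0.43 to 2.04. The cause of these shifts was not tested. Zeb1, Snai2, Twist2, Prrx1 and Prrx2 rest on 14 to 165 counts in an Elf5-positive library, which limits their precision. Foxc2 likewise rests on 51 counts in Elf5-positive library 2, and Snai3 on 20 to 70 in the Elf5-negative libraries.

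A block for the title number gave 1011 genes lower and 252 higher, and the same 5 of the 10 genes were lower. Within the T2 libraries the block gave 1368 and 549, with 8 of the 10 lower (all but Snai3 and Twist1). Of all genes tested there 7.05% were called lower. The log2 ratio of Zeb1 over fibroblast markers differed by -0.017 within these pairs. Deviations of Elf5-positive libraries correlated with those of the T2 library of the same number at r = 0.597 and 0.694 across genes. With the T1 library of the same number r was 0.17 and -0.0125. The deviations of 2 libraries from their own mean are mirror images, so these values describe 1 contrast between the Elf5-positive libraries and not separate matches. The labels do not say what the number marks.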
